A study of Mus musculus with 2 samples.

Results

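Tubulin isotypes are the alternative alpha and beta subunits from which microtubules are built, and the levels of their transcripts were set side by side in mouse hepatocytes with and without a phosphomimetic ezrin. Members were taken as the probe sets annotated to a single gene among 10 named isotypes, 5 alpha (Tuba1a, Tuba1b, Tuba1c, Tuba4a, Tuba8) and 5 beta (Tubb2a, Tubb2b, Tubb4b, Tubb5, Tubb6). The rule returned 19 probe sets for 8 of the 10 genes, out of 18193 genes with a probe set of their own. Tuba1b and Tuba1c had none, because every probe set that lists them also lists another gene.

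Each group was 1 Affymetrix Mouse Genome 430 2.0 array of hepatocytes from male wild-type FVB mice of 6 to 8 weeks. All mice had received PT3EF5α EzrinT567D (10 µg) with pCMV/SB (0.8 µg), a Sleeping Beauty transposase plasmid, in 2 ml of saline by hydrodynamic tail vein injection, which drives plasmid DNA into hepatocytes. Cells isolated with collagenase 1 week later were sorted into a GFP- fraction, labelled EzrinT567D negative, and a GFP+ fraction, labelled EzrinT567D positive, so that the negative cells also came from injected mice. Ezrin ties the plasma membrane to cortical actin, and the T567D change mimics its activating phosphorylation. The labels disagree on diet and time. Chow for all mice is stated in the growth protocol, but the descriptions say 2 months and name a fast food diet for the positive cells and chow for the negative ones. The number of mice and any pooling of RNA are not given in the sources. With 1 array per group, group, sort fraction and any difference in diet cannot be told apart, no test between the groups exists, and every difference below is a difference between 2 arrays without replicate error.

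Alpha and beta tubulin fold on cytosolic chaperones, pair as heterodimers and polymerise into microtubules, along which kinesins and dynein move organelles, secretory vesicles and endosomes. In hepatocytes, which build bile canaliculi between neighbouring cells, microtubules carry newly made plasma proteins to the sinusoidal surface and membrane proteins to the canaliculus. Isotypes differ mostly in their acidic C-terminal tails, the site of tyrosine removal and glutamylation. Cells also sense free tubulin dimers and degrade tubulin mRNA as it is translated when dimers are in excess, so tubulin transcript levels follow both transcription and this feedback.

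The values are MAS5 signals, linear probe set intensities scaled so that the 2% trimmed mean was 500.0 in each array. A probe set was called above background if its signal exceeded the 95th percentile of 85 probe sets for chemosensory receptors (olfactory, vomeronasal, taste, trace amine), a floor of 275.2 for the negative array and 334.02 for the positive one. Hepatocyte markers were bright in both arrays: all 8 hepatocyte markers were above this floor, with summed signals of 249077 and 223525, while none of the 5 cholangiocyte markers with a probe set exceeded it. Log2 ratios are given as positive over negative. Of the 8 hepatocyte markers 1 was higher and 7 were lower, with a median log2 ratio of -0.21. For the 8247 genes that exceeded the floor in both arrays the 10th and 90th percentiles were -0.40 and 0.45. A technical error came from genes with 2 such probe sets, of which there were 3131: log2 ratios of the 2 differed with an SD of 0.41, and in 40.3% of these genes they differed in sign.

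Of the 8 genes, 6 were above the floor, all in both arrays. The 4 beta isotypes among them, Tubb2a, Tubb5, Tubb6 and Tubb4b, were higher in the Ezrin T567D-positive array by their brightest probe sets, with a median log2 ratio of 0.32, and the largest difference was 1.60-fold for Tubb2a. The 2 alpha isotypes, Tuba1a and Tuba4a, had log2 ratios of -0.21 and -0.07, the latter turning to 0.06 after a loess correction. By brightest probe set 0 of the 6 genes reached 2-fold in either direction, whereas 1.15% of the 9866 genes above the floor in at least 1 array were at least 2-fold higher and 0.598% at least 2-fold lower. The median over the 6 genes was 0.23, against 0.00 over those 9866 genes.

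**Figure D1:**
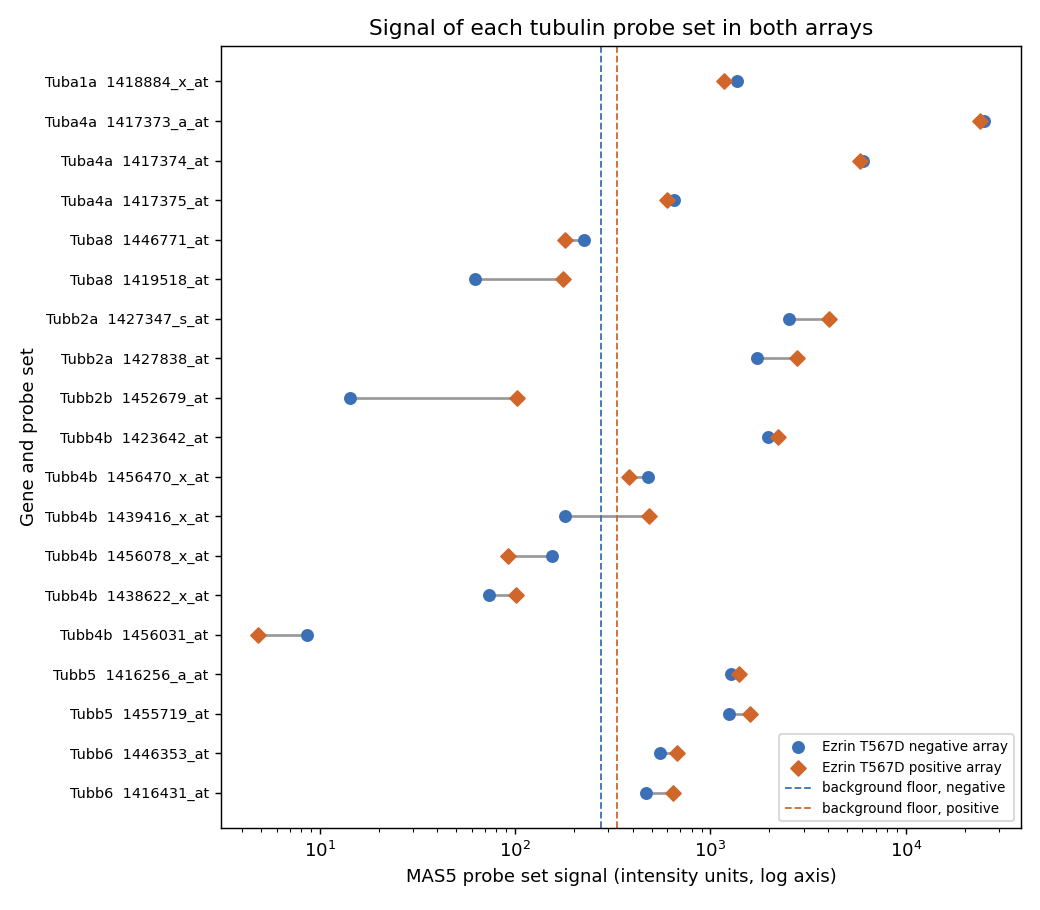
MAS5 signal (intensity units, log axis) of each of the 19 tubulin probe sets in the negative array (circles) and the positive array (diamonds), 1 array each, with the background floors of 275.2 and 334.02 as dashed lines. Both Tubb2a probe sets sit to the right in the positive array, the 3 Tuba4a probe sets nearly coincide, and 6 probe sets lie left of both floors.

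Tubb2a, a beta isotype found in many tissues and abundant in neurons, differed most by the brightest probe set of each gene. Its probe set 1427347_s_at read 2521.1 in negative and 4035.4 in positive cells. The other, 1427838_at, read 1726.2 and 2766.2. Both ratios were 1.60-fold (log2 ratios of 0.68 and 0.68), so they differed by far less than the SD of 0.41 between probe sets of one gene. Among the 3580 genes with a mean signal between 1000 and 10000, 2.12% had a log2 ratio at least as high. The suffix _s_at marks probes that match more than 1 transcript, and Tubb2a has a near-identical paralog, Tubb2b, with no protein-coding gene between them in the RefSeq table. The Tubb2b probe set 1452679_at read 14.3 and 102.3, below the floor in both arrays, so Tubb2b has no fold here. The probe set listing Tubb2b with the pseudogene Tubb2a-ps2 also stayed below the floor, at 101.9 and 173.9.

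Tubb5, the most widely expressed beta isotype, was higher in both probe sets. Probe set 1455719_at read 1238.6 and 1585.9, a 1.28-fold difference (log2 ratio 0.36). Probe set 1416256_a_at read 1280.6 and 1400.8, with a log2 ratio of 0.13. Both are higher in the positive array, but only slightly in the second, and the ratio of the first exceeds the SD of 0.29 of 1 probe set (0.41 over the root of 2) while that of the second does not. Of the 3580 genes of like signal, 8.16% had a log2 ratio at least as high as 0.36, and of the 8247 genes measured in both arrays 14.8% did.

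Tubb6, a divergent beta isotype whose excess is known to disrupt microtubule arrays, read 552.4 and 676.8 in 1446353_at and 468 and 639.6 in 1416431_at. The log2 ratios were 0.29 and 0.45, again higher in both probe sets. In the 4318 genes with a mean signal up to 1000, where the median log2 ratio was itself 0.08, 27.3% were at least as high as 0.29.

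Tubb4b, a broadly expressed isotype also used in cilia, gave probe sets that disagreed. The brightest, 1423642_at, read 1980.5 and 2222.4, with a log2 ratio of 0.17. Probe set 1456470_x_at read 478.1 and 382, with a log2 ratio of -0.32. Probe set 1439416_x_at read 180.2 and 485.4, exceeding the floor in positive cells alone, and was at least 1.76-fold higher (a log2 bound of 0.82). The remaining 3, 1438622_x_at (73.3 and 100.9), 1456078_x_at (154.6 and 92) and 1456031_at (8.6 and 4.8), lay below both floors. The suffix _x_at marks probes that can bind unrelated or similar transcripts, and 4 of the 6 Tubb4b probe sets carry it, so no single direction can be given for this gene from all its probe sets.

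Tuba4a, an alpha isotype that is encoded without the C-terminal tyrosine of most others, had nearly equal signals in 3 probe sets. They read 25213.2 and 23983.8 (1417373_a_at), 6037.7 and 5827.1 (1417374_at), and 648.8 and 596 (1417375_at). The log2 ratios of -0.07, -0.05 and -0.12 spanned 0.07, and the median over the 349 genes with a mean signal above 10000 was -0.13. After quantile normalization the log2 ratio of the brightest was 0.00 and after loess 0.06, so the arrays give no direction for Tuba4a.

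Tuba1a, the alpha isotype best known from developing neurons, read 1360.1 and 1176.6 in its only probe set, 1418884_x_at. The limit of the suffix _x_at applies here too, so similar transcripts such as those of Tuba1b and Tuba1c may add to this signal. The log2 ratio of -0.21 (1.16-fold lower) is smaller than the SD of 0.29 of 1 probe set. Of the 3580 genes of like signal, 27.7% had a log2 ratio as low or lower. Tuba8, an alpha isotype of muscle, testis and a few other tissues, lay below both floors in 1446771_at (225.6 and 179.7) and in 1419518_at (62.3 and 176.7), and its 2 probe sets pointed in opposite directions.

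**Figure D2:**
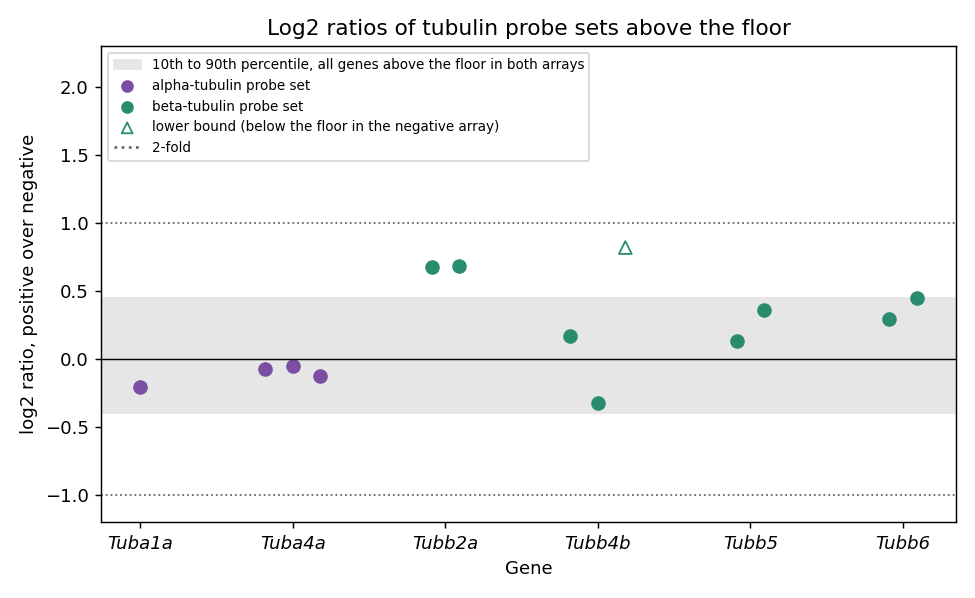
Log2 ratios (positive over negative) of the 13 tubulin probe sets above the floor in at least 1 array, by gene, with the 10th to 90th percentile of all measured genes in grey and 2-fold as dotted lines. Both Tubb2a probe sets (0.68 each) lie above the grey band, the Tubb4b probe sets scatter from -0.32 to a bound of 0.82, and the alpha-tubulin points lie between -0.21 and -0.05 (Tuba4a turns to 0.06 after loess).

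Ordered by the log2 ratio of the brightest probe set, the genes ran Tuba1a, Tuba4a, Tubb4b, Tubb6, Tubb5, Tubb2a. Every pair of neighbours in this order differed by less than the SD of 0.41, with gaps from 0.06 to 0.32. The gap between Tuba4a and Tubb2a, each of which rests on probe sets that agree, was 0.75. That between Tuba1a, which rests on 1 _x_at probe set, and Tubb2a was 0.89. Both pairs come from the ends of an order sorted on these same ratios, where gaps are wide by the sorting itself. The SD of 0.41 is therefore no measure for them. By probe set, 7 of the 8 beta probe sets measured in both arrays were higher (all but 1456470_x_at of Tubb4b) and 4 of 4 alpha probe sets were lower. Probe sets of 1 gene are not independent, and 3 of these alpha probe sets belong to Tuba4a, whose value turned to 0.06 after loess. Of the 9866 genes above the floor in at least 1 array, 46.3% were higher (4565 higher, 4737 lower and 564 without a direction). This share counts genes by their brightest probe set, so it is not on the same footing as the counts of probe sets.

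**Figure D3:**
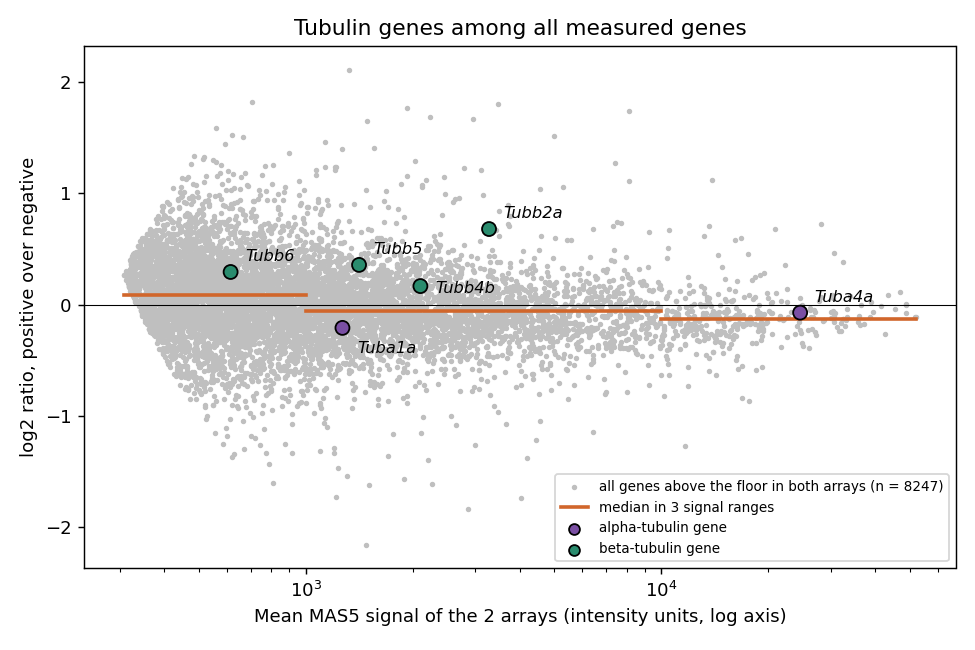
Log2 ratio against the mean MAS5 signal of both arrays (log axis) for the 8247 genes measured in both (grey), with the 6 tubulin genes marked and the median in 3 signal ranges in orange. Tubb2a lies toward the upper edge of genes with similar signals, and Tuba4a lies close to the median of the bright genes, which was -0.13.

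Paralog cross-hybridisation touches the alpha genes in particular. Tuba1a, Tuba1b and Tuba1c lie next to each other with no other protein-coding gene between, and 4 of the 5 probe sets that list a member beside another gene concern them. Probe set 1448232_x_at, which lists Tuba1c and the predicted gene Gm6682, read 3493.3 and 6359.3, a 1.82-fold difference (log2 ratio 0.86). The other probe set with the same annotation, 1416128_at, read 543.2 and 623.6, with a log2 ratio of 0.20. Probe set 1423846_x_at, listing Tuba1b and Gm5620, read 4059 and 4227 (log2 ratio 0.06). Probe set 1433584_at, listing Tuba1a and Gm6682, lay below both floors at 238.5 and 159.7. A further _x_at probe set that lists both Tuba3a and Tuba3b, 1448296_x_at, read 521.8 and 809.1 (log2 ratio 0.63). None of these signals can be assigned to 1 gene, and they are not counted above. They run from 0.06 to 0.86 where measured, so the lower values of Tuba1a and Tuba4a do not extend to every alpha-tubulin probe set.

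Sequences upstream of the start sites are shown for both alpha isotypes that were measured and for the 2 beta isotypes with the highest ratios, because these genes mark the ends of the order above. They are the 250 bases before the RefSeq start site (GRCm38.p6), 5′ to 3′ on the gene's strand. Windows from the RefSeq promoter table were used for 8 of the 10 members, all but Tubb2b and Tubb6. Tubb2b shares its chromosome with Tubb2a, whose window was kept, and had no window of this length. The selection of member windows left out all entries on a single other chromosome, so whether the table holds Tubb6 is not shown here. Capitals mark matches to 6 motifs on either strand. The core promoter motifs searched were the TATA box, spelled TATAAA, the CCAAT box, spelled by its name, and the GC box that Sp factors bind, spelled GGGCGG. The others were the cAMP response element, spelled TGACGTCA, the E box of basic helix-loop-helix factors, spelled CACGTG, and the core bound by TEAD factors, the DNA-binding partners of Yap, spelled GGAATG.
Tubb2a, chr13:34078009-34078258, minus strand: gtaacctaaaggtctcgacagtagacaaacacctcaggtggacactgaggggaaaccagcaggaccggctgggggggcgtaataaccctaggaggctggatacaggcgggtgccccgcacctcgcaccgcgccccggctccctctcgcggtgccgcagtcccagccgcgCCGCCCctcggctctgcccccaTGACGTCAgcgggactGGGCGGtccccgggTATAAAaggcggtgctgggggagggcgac
Tubb5, chr17:35838302-35838551, minus strand: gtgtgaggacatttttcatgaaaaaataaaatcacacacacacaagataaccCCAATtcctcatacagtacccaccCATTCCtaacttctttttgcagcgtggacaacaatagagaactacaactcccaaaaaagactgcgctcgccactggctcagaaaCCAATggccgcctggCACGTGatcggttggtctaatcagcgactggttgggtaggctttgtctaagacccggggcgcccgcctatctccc
Tuba4a, chr1:75219295-75219544, minus strand: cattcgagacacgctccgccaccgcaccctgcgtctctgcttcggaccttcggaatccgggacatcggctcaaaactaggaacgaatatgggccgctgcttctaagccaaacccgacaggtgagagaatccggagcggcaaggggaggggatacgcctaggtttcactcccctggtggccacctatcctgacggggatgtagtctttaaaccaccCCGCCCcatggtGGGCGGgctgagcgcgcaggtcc
Tuba1a, chr15:98953502-98953751, minus strand: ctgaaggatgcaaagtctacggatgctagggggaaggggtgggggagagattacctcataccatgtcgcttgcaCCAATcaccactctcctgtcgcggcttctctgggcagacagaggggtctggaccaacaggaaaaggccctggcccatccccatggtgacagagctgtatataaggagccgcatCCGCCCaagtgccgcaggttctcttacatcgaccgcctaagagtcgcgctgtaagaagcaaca

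The Tubb2a window holds a TATAAA whose leftmost base is at -29, counted back from the start site as for all matches here, a TGACGTCA at -59 and GGGCGG matches at -43 and -81, none of which overlap. TGACGTCA occurs in 1.55% and TATAAA in 12.4% of the 32851 windows of the same length in the table, and among the 8 tubulin windows each occurs in 1, that of Tubb2a. The Tubb5 window holds CCAAT at -90 and -198, CACGTG at -75 and GGAATG on the opposite strand at -174. GGAATG occurs in 12.6% of all windows and in 1 of the 8 tubulin windows. The Tuba4a window holds GGGCGG matches at -23 and -35, and the Tuba1a window holds CCAAT at -176 and GGGCGG at -63. CCAAT was found in 4 of the 8 windows and GGGCGG in 5 of 8, against 33.9% and 32.7% of all windows. The CArG box of serum response factor was found in 0 of the 8 and in 1.47% of all. These matches describe letters and no binding was measured.

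The remaining tubulin genes were mostly dim. Of 10 others listed, 8 had a probe set of their own and 2 exceeded the floor. Tubg1, the gamma-tubulin that nucleates microtubules, read 780.4 and 823.1 (log2 ratio 0.08). Tubb1, the platelet isotype, and the neuronal isotypes Tubb3 and Tubb4a were below the floor in both arrays.

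Genes that fold tubulin pointed both ways. All 21, comprising the chaperonin TRiC, prefoldin and the tubulin cofactors, were above the floor in both arrays, with 9 higher, 12 lower and a median log2 ratio of -0.12. Pfdn2, a prefoldin subunit, read 2195 and 1206.2 (1.82-fold lower). Among other prefoldin subunits, Pfdn6 at 1312 and 1781.8 (log2 ratio 0.44) and Vbp1 at 1141.9 and 1439.6 (0.33) were higher, Pfdn1 (0.09) and Pfdn5 (0.06) differed little, and Pfdn4 was at 790.9 and 725.5 (-0.12). The TRiC subunit Cct4 read 4417.3 and 3497.9 (-0.34), with its other probe sets between -0.38 and a bound of 0.85. For the feedback on tubulin mRNA, Ttc5, which recognises nascent tubulin chains, read 702.1 and 710.2 (0.02), and Cnot11, which links that step to the deadenylase complex, read 518.9 and 663.3 (0.35).

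Enzymes that modify tubulin had a median of -0.09 over 13 of 19 genes above the floor, with 4 higher, 8 lower and 1 without a direction. Agtpbp1, a carboxypeptidase that removes glutamates from tubulin, read 890.3 and 470.1 (1.89-fold lower), in its only probe set above the floor. The glutamylase Ttll4 read 642.1 and 865.3 (log2 ratio 0.43) in one probe set and 790.3 and 613.9 (-0.36) in another. Ttl, which restores the terminal tyrosine, read 404.3 and 344.8 (-0.23), and Svbp, the cofactor of the vasohibins that remove it, read 605.4 and 689.1 (0.19).

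Proteins that bind, cap or sever microtubules had a median of 0.12 over 22 of 32 genes above the floor, with 13 higher, 7 lower and 2 without a direction. Mapre2, an end-binding protein, read 900 and 354.8 in 1426245_s_at (2.54-fold lower), but 372.7 and 427.4 in 1451989_a_at (log2 ratio 0.20), so its direction depends on the probe set. Stmn1, or stathmin, which sequesters tubulin dimers, read 752.4 and 1196.9 (1.59-fold higher). The plus-end proteins Clip2 (352.2 and 571.7, log2 ratio 0.70) and Clasp2 (390.1 and 630.1, 0.69) were higher from signals near the floor.

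Kinesins, dynein and dynactin were balanced, with 14 higher, 16 lower and 1 without a direction among 31 of 36 genes above the floor and a median of -0.06. The kinesin Kif3c read 620.2 and 998.8 (log2 ratio 0.69) and the dynactin subunit Dctn5 1262.5 and 1814.2 (0.52), whereas the dynein adaptor Bicd2 read 532 and 356.2 (-0.58) and the dynein regulator Ndel1 1036.3 and 730.6 (-0.50). A further probe set of Kif3c (296.9 and 280.2) and of Bicd2 (314.6 and 320.7) exceeded the floor in the negative array alone and gave no direction. Nucleation and centrosome genes had a median of 0.09 over 9 of 12, with 5 higher, 3 lower and 1 without a direction. Tubgcp3, a subunit of the gamma-tubulin ring complex, read 311.4 and 566.8 (1.82-fold higher) from a signal near the floor. The centrosomal scaffolds Akap9 (log2 ratio 0.43, with other probe sets from -0.06 to 0.34), Cdk5rap2 (0.40) and Pcnt (-0.35, and 0.11 in its other probe set) pointed both ways. Over these 7 groups 0 genes were at least 2-fold higher and 1, Mapre2, at least 2-fold lower. Of all 9866 genes above the floor in at least 1 array, 1.15% were at least 2-fold higher and 0.598% at least 2-fold lower. With shares this small, the counts do not set the groups apart from all genes.

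**Figure D4:**
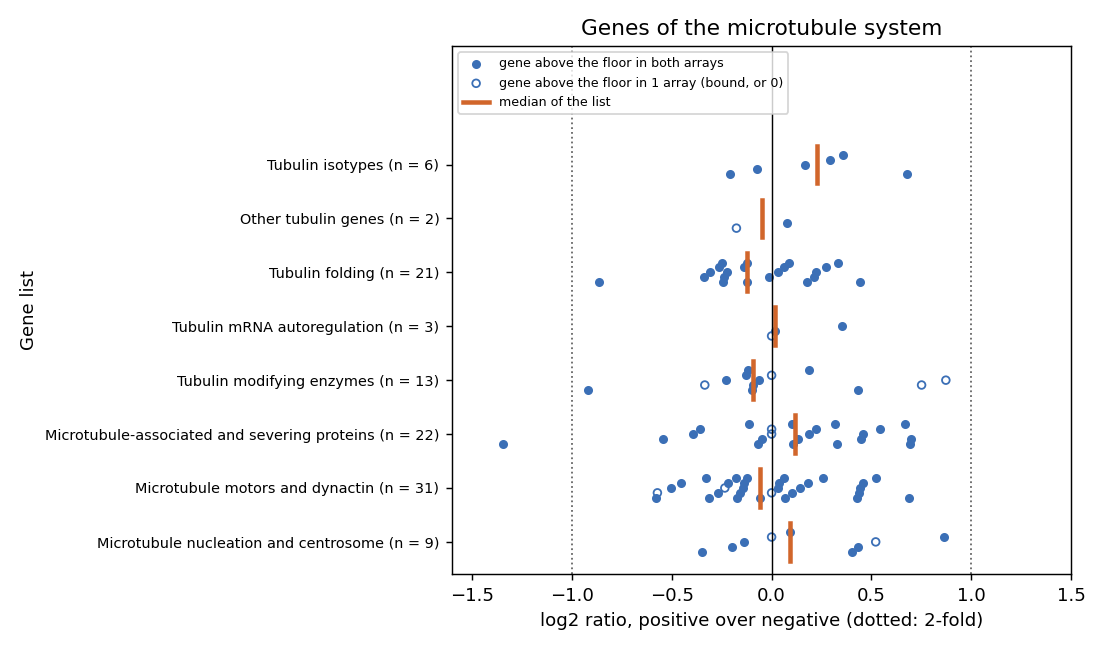
Log2 ratios (positive over negative) of genes above the floor in at least 1 array (filled: both arrays; open: 1 array), by gene group, with group medians in orange and 2-fold as dotted lines. The tubulin isotypes have a median of 0.23, the other 7 groups lie between -0.12 and 0.12, and Mapre2 is the one gene beyond 2-fold. Of all 9866 genes above the floor in at least 1 array, 1.15% were at least 2-fold higher and 0.598% at least 2-fold lower.

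Other gene groups also differed between these arrays, and their part in the tubulin differences was not tested. Immediate early genes, which cell isolation also induces, were higher for 15 of 16 above the floor, with a median log2 ratio of 0.56, among them Zfp36 (12256.3 and 16652.1) and Jun (8136.2 and 10280.5). Pericentral hepatocyte genes were higher for 10 of 10, with Cyp2e1 at 25774.8 and 35639.3 and Glul at 8783.1 and 19020.7. Periportal genes were lower for 9 of 10, with Cyp2f2 at 22864.6 and 12535.1 and Pck1 at 16430.8 and 10858.7. Mitotic genes were above the floor for 6 of 12, with 5 higher, 1 lower and a median of 0.15. Mki67 passed in the positive array alone (216.9 and 540.5) and was at least 1.96-fold higher, a log2 bound of 0.97. Tpx2 passed in the negative array alone (353.7 and 204.7), with a log2 bound of -0.08. Cdk1 read 442.7 and 462.8 (log2 ratio 0.06) and Ccna2 465.5 and 548 (0.24), both smaller than the SD of 0.29 of 1 probe set.

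Markers of other liver cells stayed dim and without a common direction. Fewer cells of a type and less RNA per cell cannot be told apart in such samples. Kupffer cell and macrophage markers above the floor numbered 5 of 12, with 1 higher and 4 lower, and their signals summed to 4189.4 (negative) and 3122.2 (positive), with C1qb at 1214.2 and 765.8 and Csf1r at 558.7 and 702.1. Sinusoidal endothelial markers numbered 9 of 11, with 6 higher, 1 lower and 2 without a direction, and summed to 5034.4 and 5688.5, with Clec4g at 1255.2 and 1418.4 and Fcgr2b at 604.6 and 770.8 in its brightest probe set, while others of Fcgr2b were lower (log2 ratios of -0.32 and -0.36). Stellate cell and fibroblast markers numbered 9 of 11, with 5 higher and 4 lower, and summed to 4509.4 and 4368.2, with Reln at 696.1 and 570.1 and Col3a1 at 688.2 and 607.3. Lymphocyte and neutrophil markers (1 of 10) and platelet and erythroid markers (1 of 6) were almost all below the floor, and no marker was listed at 0. The other filament proteins showed small differences, with Actb at 29294 and 31010.6 (log2 ratio 0.08) and the hepatocyte keratin Krt18 at 11517.8 and 10712 (-0.10).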

How the data were processed

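RNA of 2 sorted hepatocyte fractions was measured on 1 array each. The authors deposited linear probe set intensities, which MAS5 made per the submitters' processing notes; its version and settings are not given in the sources. Groups came from the group label. Of 45101 probe sets, 34945 had 1 gene symbol in the platform annotation, 932 several, 9160 none and 64 were controls; 34741 matched a RefSeq gene by Entrez ID (GRCm38.p6) and 0 symbols changed. The build behind the array design is not given.

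The brightest single-gene probe set stood for its gene, and all member probe sets are shown. A signal below the floor was raised to it, giving a bound; a bound that pointed away from the measured side, for 564 of 9866 genes, has no direction and entered medians as 0. Calls are at 2-fold. Bins of mean signal had limits at 1000 and 10000. The named genes are all members and, per other microtubule list, the 4 largest log2 ratios of genes measured in both arrays plus any at 2-fold, and the 2 brightest of marker lists; Tubb1, Tubb3, Tubb4a, Mki67, Tpx2, Pfdn1, Pfdn4 and Pfdn5 were named after their values were seen. The members and lists were chosen with earlier results of these data known. Other settings were 10 choices of normalization, floor, probe set and pseudocount (100), and 1 chosen after seeing the data, counting probe sets with several symbols. Values were computed in Python 3.11.15 with NumPy 2.4.6, pandas 2.3.3 and statsmodels 0.14.6. The ratio step was tested on simulated data, with changes placed in genes whose negative-array signal exceeded 1000, so bounds at the floor were not checked. The number of arrays, 1 per group, limits the precision.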

Additional observations from a re-analysis of the deposited data

How the results depend on the processing

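The log2 ratios of Tubb2a, Tubb5, Tubb6 and Tubb4b kept their sign under the 11 alternatives, of which 10 take 1 probe set per gene. Most of these could not turn it. Changing or dropping the floor, requiring both arrays above it and counting shared symbols left each value as it was. A pseudocount added to both arrays cannot turn a sign. The sign was open only under quantile normalization, loess and the mean over probe sets, and for Tubb2a without _s_at and _x_at probe sets. Tubb2a ran from 0.66 to 0.75, Tubb5 from 0.24 to 0.37, Tubb6 from 0.23 to 0.37 and Tubb4b from 0.16 to 0.22. The Tubb4b mean of 0.22 over probe sets includes the bound of 0.82, and over the 2 probe sets measured in both arrays the mean is -0.08, so Tubb4b has no settled direction. Tuba1a ran from -0.22 to -0.19 over 10 alternatives, since its only probe set ends in _x_at, and Tuba4a from -0.08 to 0.06. The floor and shared-symbol settings left both values as they were. The median over isotypes ran from 0.17 to 0.29. With no floor 1 isotype, Tubb2b, was at least 2-fold higher (log2 ratio 2.84, from signals of 14.3 and 102.3), and no isotype was at least 2-fold lower under the 11 alternatives. A change of a median was counted when it exceeded 0.29, the SD of 1 probe set, over the root of the number of genes. By that measure, the tubulin folding median moved to -0.049 after quantile normalization, to -0.030 after loess and to -0.013 with the mean over probe sets or without _s_at and _x_at probe sets. The median of proteins that bind or sever microtubules moved to 0.028 after quantile normalization and 0.035 after loess. The median of modifying enzymes moved to 0.00 with the 99th percentile floor and 0.19 with no floor, that of motors to -0.12 with the median of all probe sets as floor and to 0.00 with the mean over probe sets, and that of the other tubulin genes to -0.32 with no floor, where 8 genes are counted. The cause was not tested. Over all genes the counts at 2-fold were 113 higher and 59 lower, 93 and 67 after loess, 62 and 41 with the pseudocount, 239 and 155 with the median floor, and 1629 and 1655 with no floor. No paired analysis was possible because each group holds 1 array. Signals near the floors of 275.2 and 334.02 limit what can be said of Tuba8, Tubb2b and the dim Tubb4b probe sets.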
